A study of Homo sapiens with 3 samples.

Results

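Immediate early genes were followed across stem-cell-derived alpha cells. The 8 genes are FOS, FOSB, JUN, JUNB, EGR1, IER2, DUSP1 and ATF3. They were chosen by symbol, and all 8 were found among the 33538 features measured. The series has 1 group of 3 replicate libraries of SC-alpha cells derived from HUES8, a long-established line of human embryonic stem cells. The cells were grown by a published differentiation protocol as clusters, dispersed with TrypLE, an enzyme used to free cells from tissue, and sequenced as single cells with 10x Genomics 3′ v3 chemistry. No treatment or other genotype was set beside them, so every comparison lies between cells of the same libraries. Nothing in the labels says that the 3 libraries came from separate differentiations, and the differences between them may be technical. The p-values compare sums of the same library, so they measure only how steadily a difference recurs over these libraries. The spread behind them is borrowed in part from all genes tested.

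Immediate early genes are switched on within minutes of a stimulus, without new protein synthesis, by signalling through ERK and p38 kinases to SRF, its ternary complex partners and CREB. FOS, FOSB, JUN and JUNB encode subunits of AP-1, a dimeric transcription factor. EGR1 encodes a zinc-finger transcription factor, and ATF3 a stress-induced member of the ATF/CREB family. IER2 encodes a short-lived nuclear protein, and DUSP1 a phosphatase that switches MAP kinases off again. These genes are known to respond to depolarisation and calcium in endocrine cells, and also to the enzymatic dispersal of tissues.

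Replicates 1, 2 and 3 held 30139788, 31122791 and 30980799 UMIs, which are counted RNA molecules, in 2850, 2576 and 4257 barcodes. Only barcodes that reached 1000 genes, and in which mitochondrially encoded genes took no more than 20% of UMIs (the MT share), were analysed, which left 1160, 1027 and 1466 cells with medians of 15267, 20721 and 9991.5 UMIs. The libraries shared 7 barcodes in all, and 0 among the kept cells. The 8 genes held 38954, 21620 and 35280 UMIs of the kept cells, or 0.208%, 0.102% and 0.230% of all their UMIs.

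Cells were grouped by 3 rules on their own transcripts. TPH1 cells had at least 3 UMIs of TPH1, which encodes the serotonin-forming enzyme of enterochromaffin cells, and numbered 33, 17 and 105 in replicates 1, 2 and 3. Collagen cells had at least 10 UMIs of COL1A1, COL1A2 and COL3A1 together and numbered 9, 11 and 97. GCG cells had at least 5% of their UMIs from GCG, the glucagon gene, and numbered 851, 857 and 911. TPH1 and collagen cells had less than 5% GCG, 3 cells in each library met more than 1 rule and were left out of the classes, and 264, 139 and 350 cells met none.

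The classes carried markers that the rules had not used. FEV, a transcription factor of serotonergic cells, was at 406, 453 and 690 CPM (UMIs per 1000000 UMIs of the class) in TPH1 cells, against 118, 150 and 106 CPM in GCG cells. DCN, which encodes the matrix proteoglycan decorin, was at 243, 195 and 353 CPM in collagen cells, against 0.131, 0.159 and 0.399 CPM in GCG cells. GCG cells carried TTR, which encodes the transport protein transthyretin, at 74922, 73110 and 74925 CPM, against 17815, 7922 and 14833 CPM in TPH1 cells. Cells that met no rule held TTR at 47452 and 46487.5 CPM in replicates 1 and 2. Not every marker set the classes apart. GC, another alpha-cell marker, was at 894, 578 and 567 CPM in GCG cells, against 2282, 1580 and 1919 CPM in TPH1 cells. LMX1A, an enterochromaffin marker, was at only 2.54, 0 and 2.33 CPM in TPH1 cells. GCG cells were 73.4%, 83.4% and 62.1% of the kept cells. TPH1 cells of replicate 2 also held LYZ, which encodes lysozyme, at 1584 CPM, against 0 and 3.5 CPM in TPH1 cells of replicates 1 and 3.

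The promoter windows below are the 150 bases before the annotated start of 7 of the genes, shown because they share a short motif. They come from RefSeq for build GRCh38.p14, 5′ to 3′ on the gene's own strand. RefSeq starts can differ from those of GENCODE v29, the annotation of the gene coordinates given further on. By GENCODE the JUN window lies inside the gene, and the FOS window runs past the start. FOS is at chr14:75278678-75278827 (plus strand), FOSB at chr19:45467846-45467995 (plus), JUN at chr1:58784048-58784197 (minus) and JUNB at chr19:12791336-12791485 (plus). EGR1 is at chr5:138465329-138465478 (plus), IER2 at chr19:13150261-13150410 (plus) and DUSP1 at chr5:172771196-172771345 (minus). Capitals mark TGACG, the core of the cyclic AMP response element, or its reverse complement CGTCA, and in EGR1 also CArG boxes, the element that SRF binds.
FOS: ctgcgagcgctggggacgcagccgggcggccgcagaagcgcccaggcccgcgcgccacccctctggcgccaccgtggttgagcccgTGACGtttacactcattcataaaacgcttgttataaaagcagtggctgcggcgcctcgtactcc
FOSB: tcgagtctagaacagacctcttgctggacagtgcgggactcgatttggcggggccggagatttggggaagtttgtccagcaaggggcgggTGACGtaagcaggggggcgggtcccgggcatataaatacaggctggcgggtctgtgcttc
JUN: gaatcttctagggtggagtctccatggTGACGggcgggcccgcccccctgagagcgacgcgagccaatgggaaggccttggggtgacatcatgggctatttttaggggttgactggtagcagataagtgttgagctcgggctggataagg
JUNB: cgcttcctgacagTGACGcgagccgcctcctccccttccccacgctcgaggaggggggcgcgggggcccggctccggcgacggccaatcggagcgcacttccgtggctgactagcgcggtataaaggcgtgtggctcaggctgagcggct
EGR1: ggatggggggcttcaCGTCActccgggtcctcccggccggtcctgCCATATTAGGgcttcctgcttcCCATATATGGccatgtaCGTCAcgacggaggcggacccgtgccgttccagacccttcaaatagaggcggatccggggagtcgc
IER2: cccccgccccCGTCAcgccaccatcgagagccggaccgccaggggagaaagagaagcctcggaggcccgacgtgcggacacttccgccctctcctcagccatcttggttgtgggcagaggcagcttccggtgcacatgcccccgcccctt
DUSP1: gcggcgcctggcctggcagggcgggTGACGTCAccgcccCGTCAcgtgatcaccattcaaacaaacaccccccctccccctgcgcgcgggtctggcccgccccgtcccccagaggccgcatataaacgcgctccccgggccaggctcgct

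TGACG or its complement was found in the window of 300 bases, 250 before to 50 after the start, of 7 of the 8 genes, against 24.6% of 35116 promoters in the same table. The match nearest the start begins 64 bases before it in FOS, 60 in FOSB, 123 in JUN, 137 in JUNB, 66 in EGR1, 140 in IER2 and 111 in DUSP1. EGR1 held another at 135 bases. DUSP1 held the full palindrome TGACGTCA, which contains TGACG on both strands and occurs in 1.85% of promoters, at 125 bases, and a further TGACG at 172 bases, outside the printed window. Among the 8 genes a CArG box was found in that window only in EGR1, with 2 of them at 105 and 83 bases, against 1.29% of promoters. Bases further upstream were not searched, so a motif missing here may lie outside the window. The AP-1 element TGANTCA was found in 0 of the 8, against 7.71% of promoters, and the EGR element GCGNGGGCG in EGR1 alone, against 9.43%. TATAAA was found in 5 of the 8, against 11.5%. ATF3 has 2 entries in the table and neither held TGACG. These matches describe letters in a window and say nothing of what binds there.

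In GCG cells the 8 genes together reached 2108 CPM in replicate 1, 989 CPM in replicate 2 and 2336 CPM in replicate 3. Replicate 2 was the lowest library for all 8 genes, while replicates 1 and 3 differed in which gene was high. Each UMI is 1 molecule tagged at its 3′ end, so these levels are not scaled by gene length. Exact Poisson 95% intervals cover counting error only and were 2085 to 2131 CPM, 975.1 to 1004 CPM and 2306 to 2366 CPM for the summed level in replicates 1, 2 and 3.

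FOS (chr14:75278774-75282230, plus strand, GENCODE v29 on GRCh38) was at 404, 133 and 522 CPM in GCG cells of replicates 1, 2 and 3, a mean of 353 ± 199 CPM (SD, n = 3). FOSB (chr19:45467995-45475179, plus) was at 323, 58.1 and 149 CPM, a mean of 177 ± 135 CPM. FOSB had the widest range between libraries of the 8 genes, with its highest library 5.56 times its lowest, and FOS came next at 3.92 times. The ratio of FOSB to FOS was 0.80, 0.436 and 0.285, so the balance of the FOS-type AP-1 subunits also differed between the libraries.

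JUN (chr1:58780788-58784327, minus) was at 458, 303 and 508 CPM in GCG cells, a mean of 423 ± 107 CPM (SD, n = 3). JUNB (chr19:12791496-12793315, plus) was at 285, 185 and 381 CPM, a mean of 284 ± 97.6 CPM. JUN had the narrowest range between libraries, 1.68 times, and JUNB the next narrowest, 2.05 times. JUN therefore stood at 2.27 times FOS in replicate 2, against 1.13 and 0.973 times in replicates 1 and 3.

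EGR1 (chr5:138465490-138469315, plus) was at 194, 92.4 and 262 CPM in GCG cells, a mean of 183 ± 85.1 CPM (SD, n = 3). IER2 (chr19:13150415-13154908, plus) was at 173, 106 and 309 CPM, a mean of 196 ± 104 CPM. Both genes had the library order of FOS, with replicate 3 highest. DUSP1 (chr5:172768090-172771195, minus) was at 266, 108 and 198 CPM, a mean of 191 ± 79.2 CPM, and shared with FOSB a highest value in replicate 1. ATF3 (chr1:212565334-212620777, plus) was far below the others at 5.52, 2.92 and 7.78 CPM, from 84, 55 and 78 UMIs over all GCG cells. In GCG cells the means of EGR1, IER2, DUSP1 and FOSB lay within 1 SD of each other.

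**Figure D1:**
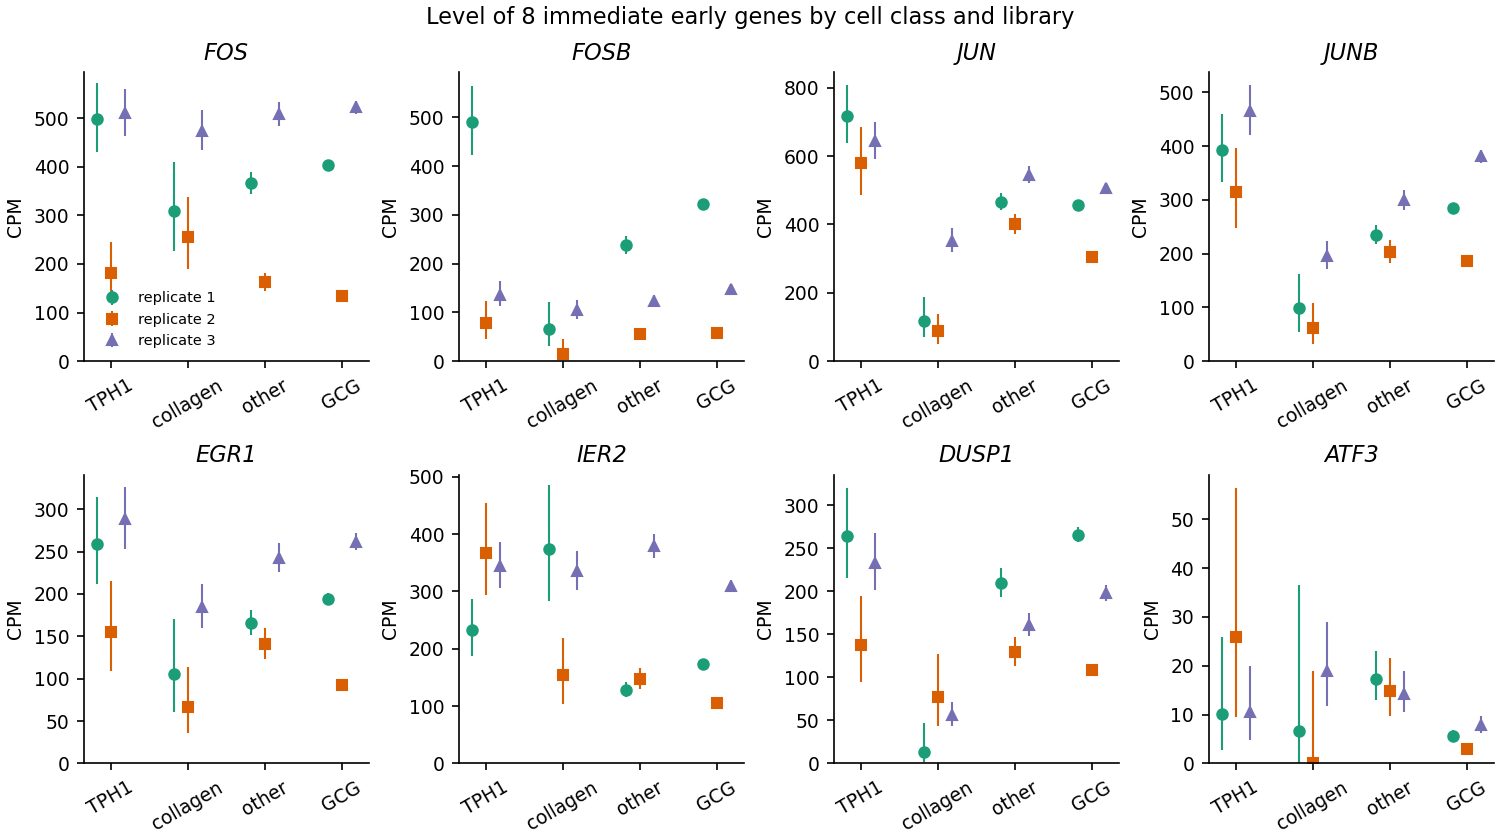
Level of each gene in CPM (y axis, from 0) in TPH1, collagen, other and GCG cells (x axis), with 1 point for each library and bars for the exact Poisson 95% interval of counting. Replicate 2 (squares) is the lowest library of GCG cells for all 8 genes, and collagen cells lie below GCG cells of the same library for FOSB, JUN, JUNB, EGR1 and DUSP1.

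In plain CPM, TPH1 cells had the highest mean over libraries for all 8 genes, and collagen cells the lowest for FOSB, JUN, JUNB, EGR1 and DUSP1. For ATF3 the lead was trivial, at 15.52 CPM, against 15.46 CPM in cells of no class. The summed level averaged 2446 ± 538 CPM in TPH1 cells, 1176 ± 508 CPM in collagen cells, 1783 ± 511 CPM in cells of no class and 1811 ± 721 CPM in GCG cells (SD, n = 3 libraries). The ranges of neighbouring classes overlapped for the summed level. For JUN they did not at the top, with 579 to 718 CPM in TPH1 cells, against 400 to 545 CPM in cells of no class and 303 to 508 CPM in GCG cells. For ATF3 the GCG cells stood lowest, and its level in cells of no class, 14.3 to 17.4 CPM, did not overlap the 2.92 to 7.78 CPM of GCG cells. In TPH1 cells of replicate 2 the level of ATF3 rested on 6 UMIs, 83.3% of them from 1 cell. When the classes were scaled by TMM, a factor that allows for differing make-up of the RNA, FOS, FOSB, JUNB, EGR1 and DUSP1 had negative log2 fold changes in TPH1 over GCG cells.

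Within a library the 8 genes varied from cell to cell. The summed level, as UMIs per 10000 UMIs of the cell, had a median of 19.7 over the GCG cells of replicate 1, with 5th and 95th percentiles of 3.23 and 44.5. In replicate 2 the median was 7.11 and the percentiles were 0 and 26.6. In replicate 3 the median was 20.99 and the percentiles were 3.81 and 54.2. The quartiles were 12.2 and 29.2, 2.83 and 13.4, and 12.6 and 32.3 in replicates 1, 2 and 3. No UMI of any of the 8 genes was found in 16, 71 and 7 GCG cells, or 1.88%, 8.28% and 0.768%. With each cell drawn down to 5000 UMIs and shallower cells left out, the shares were 2.58%, 13.2% and 1.75% of 813, 772 and 858 cells. Replicate 2 thus held the most cells without these transcripts at equal depth, although its GCG cells were the deepest, with a median of 21747 UMIs, against 16483 and 10483 in replicates 1 and 3. No class here is known to lack these genes, so no background share from free RNA could be set beside them.

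**Figure D2:**
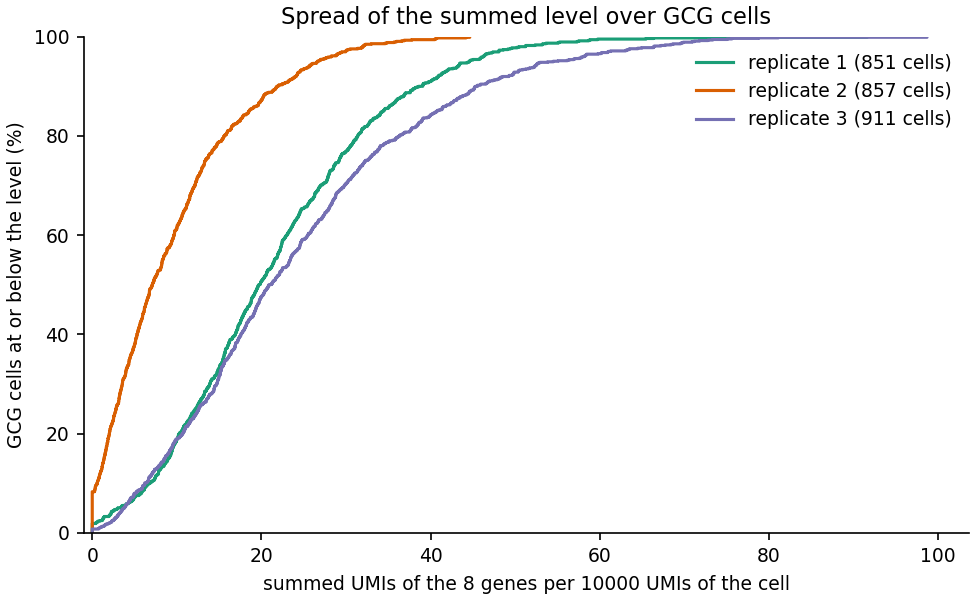
Cumulative share of GCG cells (y axis, %) at or below a given summed level of the 8 genes (x axis, UMIs per 10000 UMIs of the cell), with 1 line for each library. The line of replicate 2 lies to the left, with a median of 7.11, against 19.7 and 20.99 in replicates 1 and 3.

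By variance beyond counting error, the single genes other than ATF3 were more uneven over cells than most genes at 50 CPM or more. This variance beyond counting error, as a squared coefficient of variation, was 0.260, 0.995 and 0.341 for FOS over the GCG cells of replicates 1, 2 and 3. Its median over the 2369, 2358 and 2446 genes at 50 CPM or more was 0.068, 0.073 and 0.084. FOSB was at 0.379, 2.31 and 1.38, and IER2 at 1.19, 1.65 and 1.12. Over the 7 genes other than ATF3, which fell under that level, between 0.297% and 9.65% of genes at 50 CPM or more had a higher value in the same library. FOSB in replicate 2 was the most concentrated of the 7, with 39.5% of its UMIs in the 5% of cells with most of them. That share was 16.9% in replicate 1 and 28.4% in replicate 3, and the median gene had 18.02%, 17.3% and 20% in replicates 1, 2 and 3. By that share not every gene stood above the median gene: in replicate 1 FOS had 15.3%, FOSB 16.9%, JUNB 16.9%, EGR1 16.5% and DUSP1 16.4%, and in replicate 3 FOS had 15.4%, JUNB 16.7% and EGR1 16.1%. ATF3 gave at most 6 UMIs in any GCG cell.

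The genes varied together over cells. Over GCG cells of 1 library, on log2(1 + UMIs per 10000), the 21 pairs without ATF3 had a median Pearson correlation of 0.391 in replicate 1 (851 cells), 0.436 in replicate 2 (857 cells) and 0.344 in replicate 3 (911 cells). The pairs ran over 0.272 to 0.529, 0.325 to 0.582 and 0.240 to 0.446. Over all pairs of genes at 50 CPM or more the median was 0.018, 0.030 and 0.012, and the upper 1% began at 0.151, 0.258 and 0.108. Every one of the 21 pairs thus lay within that upper 1% in its library. Cells of a library share its preparation and differ in depth, so these are descriptions. With cells drawn down to 5000 UMIs the median of the 21 pairs was 0.221, 0.248 and 0.232. These pairs ran over 0.125 to 0.351, 0.186 to 0.321 and 0.181 to 0.318. Pairs of all genes were not drawn down, so the upper 1% has no counterpart at that depth.

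The closest pair was FOS with EGR1, at a mean of 0.515 over the libraries and a range of 0.446 to 0.582. FOSB with JUN averaged 0.456. The 7 pairs with ATF3 reached only 0.025 to 0.117, 0.087 to 0.159 and 0.031 to 0.182, which in counts this sparse is no finding either way.

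**Figure D3:**
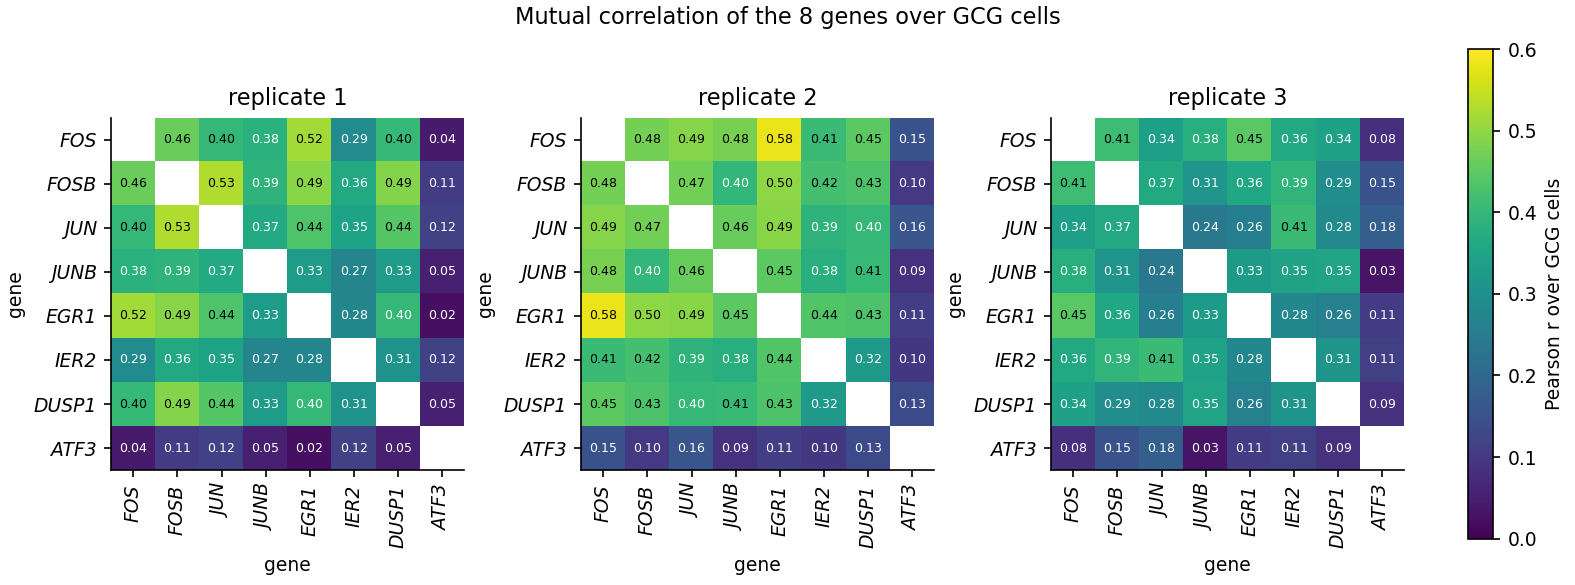
Pearson correlation (colour, 0 to 0.6) of each pair of the 8 genes over GCG cells, with 1 panel for each library and the genes on both axes. All pairs without ATF3 lie between 0.240 and 0.582, and the row of ATF3 stands apart at 0.182 or less.

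Of 2168 other genes at 50 CPM or more in every library, BTG2 followed the summed level of the 8 most closely. Genes were ranked by the lowest of the 3 libraries' correlations over GCG cells. BTG2, an antiproliferative gene that is itself induced early, had r of 0.389, 0.531 and 0.460 in replicates 1, 2 and 3. The median gene had 0.043, 0.088 and 0.014. ACTB, which encodes beta-actin, followed at 0.324, 0.343 and 0.315, and TXNIP, which encodes a thioredoxin-binding protein, at 0.292, 0.220 and 0.261. KLF6, a zinc-finger transcription factor, had 0.190, 0.380 and 0.212. Others near the top were BCAM (0.324, 0.358 and 0.180), SCD (0.210, 0.374 and 0.177) and PLD3 (0.328, 0.337 and 0.174).

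Of the listed stress genes, 5 heat shock genes and 1 ATF4 gene reached 50 CPM in every library. HSPE1, which encodes a mitochondrial chaperonin, had r of -0.119, -0.110 and -0.062. HSP90AA1, a cytosolic chaperone, had 0.062, 0.169 and 0.087, and HSPA8, another, had 0.152, 0.168 and -0.028. HSPH1, a co-chaperone, had 0.061, 0.190 and -0.019, and HSPD1, the partner of HSPE1, had 0.011, 0.098 and -0.038. ATF4, the factor of the integrated stress response, had 0.006, -0.032 and -0.002.

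The summed level bore little relation to the MT share over all GCG cells that passed the filter. Spearman's rho was -0.048, 0.116 and -0.096 in replicates 1, 2 and 3. Over the 804, 737 and 850 GCG cells with at least 10% MT share it was -0.131, -0.079 and -0.119, and over the 47, 120 and 61 cells below 10% it was 0.625, 0.593 and 0.151. Cells of a library share its preparation, and the MT share moved with depth.

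In GCG barcodes grouped by MT share, the summed level was low below 5%, highest at 5 to 10% in CPM of all UMIs and lower again above that. In replicate 1 it was 228 CPM below 5%, then 2332, 2264, 1987, 1716 and 1317 CPM at 5 to 10, 10 to 15, 15 to 20, 20 to 30 and over 30%. In replicate 2 the same steps gave 267, 1193, 1100, 908, 796 and 659 CPM. In replicate 3 they gave 158, 2550, 2528, 2174, 1506 and 1612 CPM. The values below 5% rested on 19, 80 and 2 UMIs of the 8 genes in replicates 1, 2 and 3. That of replicate 3 lay under 237 CPM, the level that 3 UMIs would give there. With mitochondrial UMIs left out of the totals, the peak lay at 10 to 15% in replicates 1 and 3, with 2603 and 2906 CPM, against 2575 and 2797 CPM at 5 to 10%. On that scale the level over 30% was above that at 20 to 30% in replicates 2 and 3, with 1060 and 2515 CPM, against 1027 and 1961 CPM. The barcodes below 5% numbered only 22, 64 and 4 and had medians of 3538, 3890 and 3261 UMIs, against 16451, 22523 and 10311 UMIs at 10 to 15%. MALAT1, a nuclear transcript, was at 3602, 6520 and 22920 CPM in these GCG barcodes, against 19415, 11750 and 15657 CPM at 10 to 15%. All barcodes below 5%, of any class, had medians of 2767, 3576 and 2874 UMIs. Their summed levels were 1434, 238 and 1797 CPM. The part of low depth or of nuclear RNA in the low level of the GCG barcodes was not tested.

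Above 10% the decline was shared by the single genes. Over the 7 genes other than ATF3 and the 3 libraries, the level was lower at 15 to 20% than at 10 to 15% in 21 of 21 cases, and lower at 20 to 30% than at 15 to 20% in 20 of 21. A rising MT share lowers the CPM of other genes by itself: over 2154 other genes at 50 CPM or more, not mitochondrial, 71.9% and 79.7% of cases were lower at the same steps. With mitochondrial UMIs left out of the totals, the counts were 20 and 19 of 21, against 46.1% and 46.5% of cases for the other genes. FOS in replicate 1 was at 424, 386 and 330 CPM at 10 to 15, 15 to 20 and 20 to 30%.

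**Figure D4:**
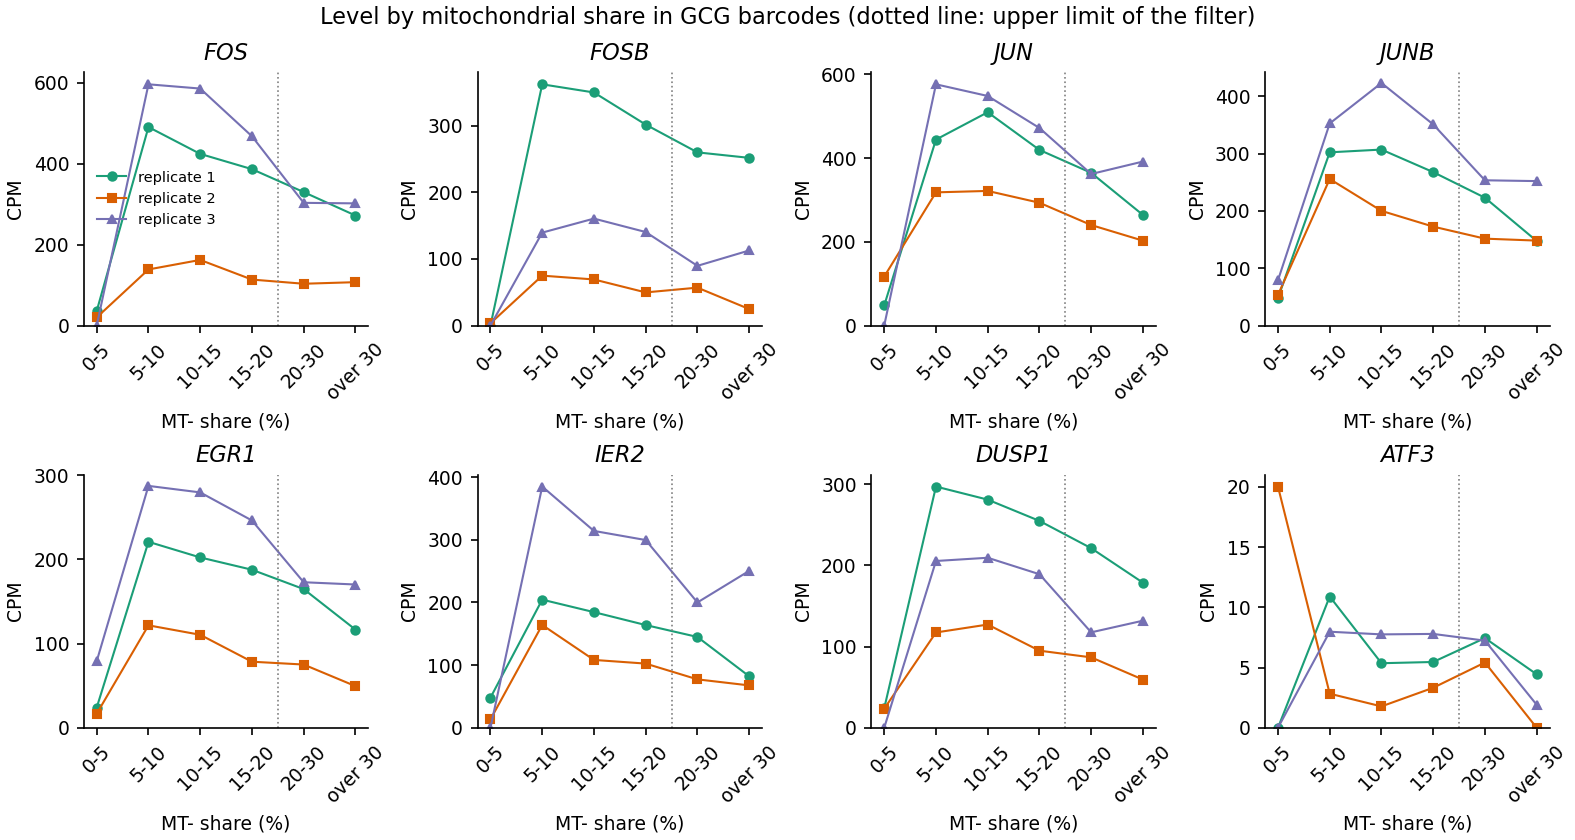
Level of each gene in CPM (y axis, from 0) in GCG barcodes by MT share (x axis, %), with 1 line for each library and a dotted line at the 20% limit of the filter. The summed level in replicate 1 is 228 CPM below 5% and 2332 CPM at 5 to 10%. The 7 genes other than ATF3 are lower at 20 to 30% than at 10 to 15% in all 21 cases, as are other genes in 84.9% of cases.

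The third of GCG cells with the highest MT share was set against the third with the lowest within each library. FOS was the 1 gene of the 8 that passed the test, and it fell. FOS was at 376, 106 and 453 CPM in high-MT cells of replicates 1, 2 and 3, against 419, 158 and 609 CPM in low-MT cells. It was lower in high-MT cells of all 3 libraries. Its log2 fold change was -0.30 ± 0.06 (SE), at an adjusted p of 0.00627 by edgeR's quasi-likelihood test with the library as block (283, 285 and 303 cells a side, summed per library). Of 12200 genes tested, 0.434% were lower, 0.992% were higher and 1.43% changed in either direction. Without replicate 2, FOS was at -0.23 with an adjusted p of 0.216, and with cells drawn to 5000 UMIs at -0.19 with an adjusted p of 0.321. It missed as well with a minimum of 500 genes (-0.13, adjusted p = 0.803) and without the library block (-0.28, adjusted p = 0.999).

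FOSB (-0.25 ± 0.07, adjusted p = 0.0656), EGR1 (-0.22 ± 0.07, 0.102), DUSP1 (-0.21 ± 0.06, 0.0996), JUNB (-0.18 ± 0.06, 0.114) and JUN (-0.17 ± 0.06, 0.150) did not pass the same edgeR test. IER2 was at -0.06 ± 0.06 and ATF3 at 0.31 ± 0.24. All 7 genes other than ATF3 were lower in high-MT cells of all 3 libraries, as were 27.1% of all genes tested. Without replicate 3, 5 of the 8 passed as lower, among 165 of 12440 genes. High-MT cells were also deeper, with medians of 16723, 23597 and 11264 UMIs, against 15344, 17105 and 9690 UMIs in low-MT cells. With cells ranked by MT share within bins of like depth, the medians were 16487, 21782 and 10520 UMIs in high-MT cells, against 16474, 21768 and 10496 UMIs in low-MT cells. At that matched depth 6 of the 8 passed as lower, among 111 of 12374 genes: FOS (-0.27), FOSB (-0.28), EGR1 (-0.21), DUSP1 (-0.20), JUN (-0.18) and JUNB (-0.18). IER2 (-0.02) and ATF3 (0.04) did not pass.

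TPH1 cells were next set against GCG cells of the same library. No gene of the 8 passed the test, and 2 of them, FOS and DUSP1, had an unadjusted p under 0.05 by edgeR, as did 25.2% of genes tested, so 2 of 8 lies at that background. DESeq2 also called 0 of the 8. Of 12850 genes tested, 14.2% changed, with 6.51% higher and 7.7% lower, so 0 of 8 lies near the background. Lower CPM in all 3 libraries was found for 0 of the 8 and for 7.77% of genes. The low number of TPH1 cells, 17 in replicate 2, sets the precision.

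JUN was at 718, 579 and 644 CPM in TPH1 cells, against 458, 303 and 508 CPM in GCG cells. It was higher in TPH1 cells of all 3 libraries on this plain scale, as were JUNB, EGR1, IER2 and ATF3. These 5 of 8 are set against 50.1% of genes tested that were higher in all 3 libraries on that scale, so the count is near the background. The fit, which scales libraries by TMM, put JUN at a log2 fold change of only 0.11 ± 0.12 (adjusted p = 0.660). With plain library totals in its place JUN (0.62), JUNB (0.48) and IER2 (0.72) passed as higher, but the median of all genes then stood at 0.48, against -0.02 with TMM. The value of JUNB thus equalled that shift, and those of JUN and IER2 lay above it.

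FOS was at 498, 181 and 511 CPM in TPH1 cells, against 404, 133 and 522 CPM in GCG cells, a log2 fold change of -0.31 ± 0.12 (edgeR adjusted p = 0.121). Its fold of 0.809 had a 95% interval of 0.684 to 0.956. DUSP1 was at 264, 138 and 233 CPM in TPH1 cells, against 266, 108 and 198 CPM in GCG cells, at -0.33 ± 0.13 (adjusted p = 0.114). Without replicate 2 both passed, FOS at -0.36 and DUSP1 at -0.36. The sign of FOS and DUSP1 turned with plain library totals, to 0.20 and 0.17.

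IER2 was at 234, 367 and 344 CPM in TPH1 cells, against 173, 106 and 309 CPM in GCG cells. Its largest gap was in replicate 2, with 85 UMIs from 17 TPH1 cells. The fitted log2 fold change was 0.20 ± 0.20 (edgeR adjusted p = 0.608), -0.21 without replicate 2 and 0.51 without replicate 3, where it passed at an adjusted p of 0.0470. FOSB was at 490, 77.7 and 136 CPM in TPH1 cells, against 323, 58.1 and 149 CPM in GCG cells (-0.21 ± 0.15). EGR1 (-0.13 ± 0.13) and JUNB (-0.03 ± 0.12) lay near 0. ATF3 rested on 4, 6 and 9 UMIs in TPH1 cells (0.73 ± 0.51).

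Nuclear transcripts moved with the class. MALAT1 and NEAT1 together were at 49512, 29953 and 40438 CPM in TPH1 cells, against 19896, 11413 and 15504 CPM in GCG cells. TPH1 cells were also shallower, with medians of 11190, 13903 and 8067 UMIs. With cells drawn to 5000 UMIs the fit put FOS at -0.31, DUSP1 at -0.40 and JUN at 0.19, and 0 of the 8 passed. The part of nuclear RNA in these values was not tested.

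Collagen cells differed more from GCG cells, and did so unevenly across the 8 genes. FOSB, JUN, JUNB, EGR1 and DUSP1 fell, and FOS, IER2 and ATF3 did not pass the test. The fit used replicates 2 and 3, since replicate 1 had only 9 collagen cells, under the minimum of 10. With 2 pairs of sums a gene's own spread between libraries could barely be estimated. The p-values of this comparison therefore lean on the spread shared over all genes. Of 13357 genes tested, 20.8% were lower, 19.9% were higher and 40.7% changed in either direction, and 0 of the 8 were higher. Lower CPM in both fitted libraries was found for the same 5 genes and for 39.7% of all genes.

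DUSP1 was at 13.1, 76.8 and 56.0 CPM in collagen cells of replicates 1, 2 and 3, against 266, 108 and 198 CPM in GCG cells. Its log2 fold change was -1.57 ± 0.26 (edgeR adjusted p = 8.6e-09), a fold of 0.337 with a 95% interval of 0.238 to 0.477. The collagen cells of replicate 1 held 2 UMIs of DUSP1 in all. Collagen cells were lower in every library and their range did not reach that of GCG cells.

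JUNB was at 98.5, 61.4 and 196 CPM in collagen cells, against 285, 185 and 381 CPM in GCG cells (-1.34 ± 0.23, edgeR adjusted p = 2.7e-08). JUN was at 118, 87.0 and 352 CPM in collagen cells, against 458, 303 and 508 CPM in GCG cells (-1.16 ± 0.21, adjusted p = 2.1e-07). Both were lower in collagen cells of every library, although the collagen cells of replicate 3 overlapped the GCG cells of replicate 2. In replicate 2 the collagen cells gave 17 JUN UMIs, 58.8% of them from 1 cell.

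FOSB was at 65.7, 15.4 and 105 CPM in collagen cells, against 323, 58.1 and 149 CPM in GCG cells (-0.91 ± 0.26, edgeR adjusted p = 0.00209), with only 3 UMIs in the collagen cells of replicate 2. EGR1 was at 105, 66.5 and 184 CPM in collagen cells, against 194, 92.4 and 262 CPM in GCG cells (-0.68 ± 0.23, adjusted p = 0.0113). FOSB and EGR1 did not pass with DESeq2 (adjusted p of 0.103 and 0.133) or with cells drawn to 5000 UMIs (0.165 and 0.245). EGR1 also missed with plain library totals, at -0.50 and an adjusted p of 0.0890. Without the library block JUN, FOSB and EGR1 missed, and JUNB and DUSP1 passed.

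FOS was at 309, 256 and 474 CPM in collagen cells, against 404, 133 and 522 CPM in GCG cells, so that collagen cells were lower in 2 libraries and higher in replicate 2 (0.13 ± 0.20, edgeR adjusted p = 0.650). Its fold of 1.09 had a 95% interval of 0.833 to 1.43. IER2 was at 374, 154 and 335 CPM in collagen cells, against 173, 106 and 309 CPM in GCG cells (0.09 ± 0.21, adjusted p = 0.779). IER2 was thus higher in collagen cells of every library on the plain scale. ATF3 rested on 1, 0 and 21 UMIs in collagen cells (0.83 ± 0.71, adjusted p = 0.368).

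Replicate 1 had not entered that fit, and its collagen cells were lower than its GCG cells in FOS and in the 5 genes that had passed. The 5 genes were therefore lower in all 3 libraries, as were 37.7% of genes with at least 10 UMIs in the 6 sums. With a minimum of 5 cells, which brought replicate 1 in, the same 5 genes passed, at log2 fold changes between -0.98 for EGR1 and -2.18 for DUSP1, while 28.8% of all genes were lower. FOS was then at -0.29 and IER2 at 0.16, and neither passed.

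**Figure D5:**
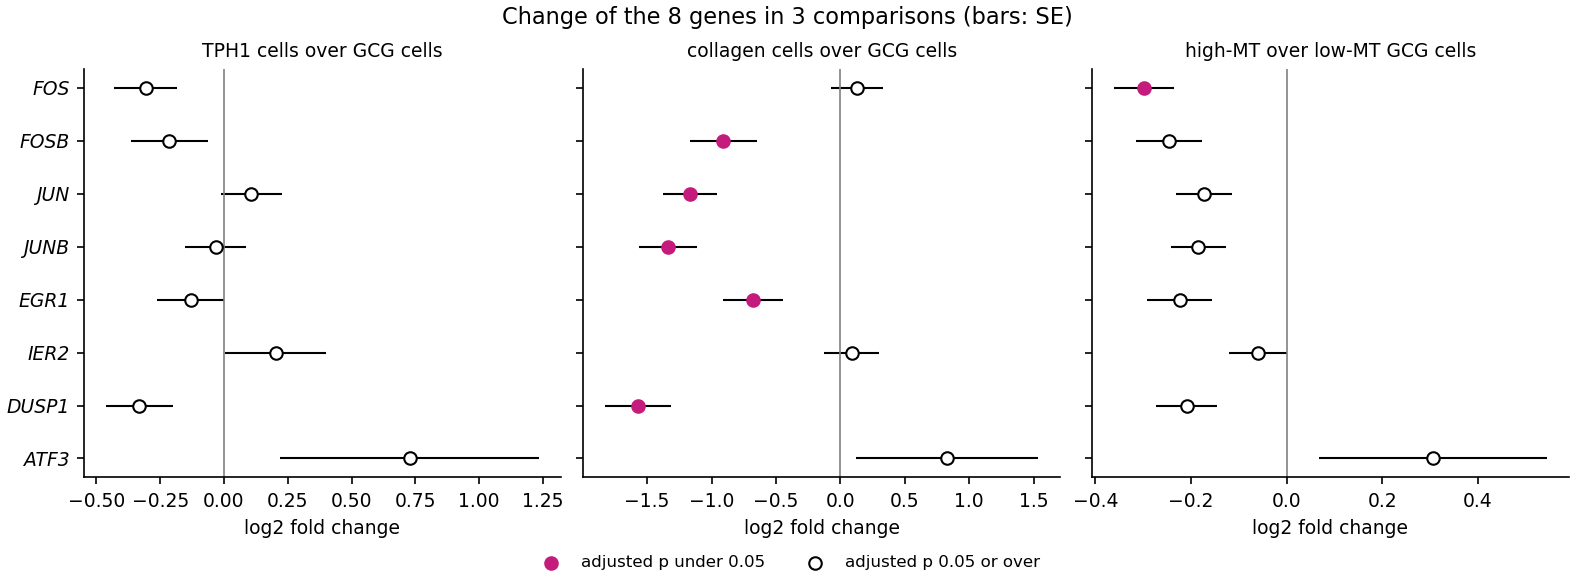
Log2 fold change of each gene (x axis) with its SE (bar) in TPH1 over GCG cells, collagen over GCG cells and high-MT over low-MT GCG cells, on a separate scale in each panel. Filled points have an adjusted p under 0.05 by edgeR: none in the first panel, FOSB, JUN, JUNB, EGR1 and DUSP1 in the second, and FOS in the third.

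Other measures also moved with the collagen class. MKI67 and TOP2A, markers of dividing cells, together reached 637, 195 and 355 CPM in collagen cells, against 0.591, 10.3 and 0.598 CPM in GCG cells. The median MT share was 9.37%, 10.7% and 9.15% in collagen cells, against 15.01%, 14.8% and 15.1% in GCG cells. MALAT1 and NEAT1 were at 37313, 28464 and 29453 CPM in collagen cells. Markers of alpha cells, 7 genes with GCG among them, summed to 1550, 1321 and 1507 CPM in collagen cells, against 229135, 235513 and 206278 CPM in GCG cells. The part of any of these in the fall of the 5 genes was not tested. The TPH1 and collagen comparisons share the same GCG cells, so their values are not independent of each other.

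Further early genes were taken as lists. Their counts between collagen and GCG cells are to be read against the 19.9% of all genes that were higher and the 20.8% that were lower. Of 13 other early transcription factors 11 could be tested between collagen and GCG cells, and 3 rose (FOSL2, KLF4 and JUND) and 2 fell (EGR4 and NR4A2). JUND, an AP-1 subunit that is less inducible than JUN, was at 486 and 474 CPM in collagen cells of replicates 2 and 3, against 255 and 270 CPM in GCG cells (0.67 ± 0.19, edgeR adjusted p = 0.00185). NR4A2, an orphan nuclear receptor, was at 0 and 13.5 CPM in collagen cells, against 5.68 and 37.4 CPM in GCG cells. EGR4 gave 0 and 1 UMI in collagen cells, against 57 and 145 in GCG cells. These counts of 11 lie near the background, and the median log2 fold change of the list was -0.50, against -0.15 over all genes.

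Of 19 other early response genes 18 could be tested in that comparison, and 10 rose and 4 fell, with a median of 1.54. CTGF, a matricellular growth factor that fibroblast-like cells express, was at 107 and 437 CPM in collagen cells, against 0.903 and 1.495 CPM in GCG cells. CYR61, its relative, gave 10 and 221 UMIs in collagen cells, against 0 and 1 in GCG cells. IER5 and SOCS3 also rose, with SOCS3 on 3 UMIs or fewer in all GCG cells. BTG2, the gene most like the 8 over GCG cells, fell to 51.2 and 51.5 CPM in collagen cells, against 120 and 376 CPM in GCG cells (-2.61 ± 0.27, edgeR adjusted p = 6.8e-21). BTG1, ZFP36 and ZFP36L2 were the other genes of the list that fell.

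Of 15 upstream genes, the kinases and factors that act on immediate early promoters, 5 fell and 0 rose in collagen cells, beside 20.8% lower and 19.9% higher over all genes, with a median of -0.70. RPS6KA3, which encodes the ERK-activated kinase RSK2, was at -3.51 ± 0.26 (edgeR adjusted p = 3.6e-38). MAPK3, which encodes the kinase ERK1, fell as well (-1.71 ± 0.38), and RPS6KA1 and MAPK14 were among the others. Of 9 heat shock genes 4 rose and 0 fell, with HSPB1, a small heat shock protein, at 363 and 284 CPM in collagen cells, against 39.9 and 64.1 CPM in GCG cells (2.42 ± 0.22). HSP90AA1 (0.83), HSPD1 (0.69) and HSPA8 (0.48) were the others. Of 7 genes of the ATF4 stress response 2 fell, CHAC1 and SESN2, and 0 rose, which is near the background of 20.8% lower.

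Counts of the lists between TPH1 and GCG cells are to be read against the 6.51% of 12850 genes that were higher and the 7.7% that were lower. In TPH1 cells 0 of 11 other early transcription factors passed the test. Of 16 other early response genes 3 rose and 1 fell. CTGF was at 251, 17.3 and 204 CPM in TPH1 cells, against 1.18, 0.903 and 1.495 CPM in GCG cells, with 4 UMIs behind the TPH1 value of replicate 2. SGK1 and DUSP6 were the others that rose, with SGK1 on 0, 1 and 1 UMIs in GCG cells. BTG1 fell by 0.96 ± 0.13 on the log2 scale (edgeR adjusted p = 4.9e-05). RPS6KA3 (-1.27 ± 0.14) was the 1 of 15 upstream genes and HSPE1 (-0.52 ± 0.12) the 1 of 9 heat shock genes that passed, and both fell. Counts of 1 in lists of 15 and 9 lie near the background of 7.7% lower. Of the 7 ATF4 genes 0 passed.

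Between high-MT and low-MT GCG cells EGR4 was the 1 gene of all 5 lists that passed, beside 1.43% of all genes tested. The lists had 9 other early transcription factors, 13 other early response, 15 upstream, 9 heat shock and 7 ATF4 genes tested. A count of 1 among them lies near the background. EGR4 was at 6.05, 1.97 and 10.8 CPM in high-MT cells, against 9.22, 6.21 and 19.3 CPM in low-MT cells (-0.86 ± 0.21, edgeR adjusted p = 0.0288). The call ended with at least 500 genes (adjusted p = 0.246), without the library block (0.999), with narrower high and low sets (0.151), without replicate 2 (0.191) and without replicate 3 (0.0791), and DESeq2 gave no adjusted p. BTG2 was at 208, 108 and 334 CPM in high-MT cells, against 201, 130 and 412 CPM in low-MT cells (-0.10 ± 0.06), and did not pass.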

How the data were processed

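Single-cell RNA was measured in 3 libraries of HUES8-derived SC-alpha cells, 1 group, named replicates 1 to 3 after the labels. Values are raw, unnormalised UMI counts as deposited; the authors made them with Cell Ranger 4.0.0 on GRCh38, per the file headers and the submitters' processing notes. Which gene annotation and cell-calling settings were used the sources used here do not give.

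Cells were kept and classed as the report states, and the counts of each class were added up within each library that had 10 or more of its cells. Sums were compared with edgeR 4.0.16 (quasi-likelihood test, TMM, filterByExpr; R 4.3.3) with the library as block, at a Benjamini-Hochberg adjusted p of 0.05 over all genes tested. The pairing comes from the design, since paired sums share a library. SEs were derived from the log2 fold change and the F statistic. DESeq2 1.42.0 was an alternative. Intervals of levels are exact 95% Poisson ones and cover counting error only. The 95% intervals of folds come from the log2 fold change and its SE by a normal approximation. Cell measures used Python 3.11.15 with scanpy 1.11.5. Scrublet (expected rate 0.8% per 1000 cells) marked 18, 11 and 18 kept cells as doublets, which were retained and left out in an alternative. The scripts were tested on simulated data.

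The 8 genes and the 5 lists of 63 other genes were chosen with earlier results of these data known. Named genes are the 8, in each list the genes, at most 4, that passed with the largest changes, and the 8 genes whose lowest correlation with the summed level was highest; JUND, DUSP6, BTG1, BTG2, ZFP36, ZFP36L2, MAPK14, HSP90AA1, HSPA8, HSPD1, HSPH1, HSPE1 and ATF4 are in places named beyond that rule, after their values were seen. CTGF, CYR61, MKL1 and MKL2 were matched by gene identifier. A few genes that this rule admits are not reported here.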

Additional observations from a re-analysis of the deposited data

Results flagged for a closer look

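Immediate early transcripts also appeared in barcodes that the filter left out, which no comparison used, at levels above the limit that a count of 0 allows. In barcodes under 1000 genes the 8 genes summed to 983 CPM in replicate 1, 159 CPM in replicate 2 and 886 CPM in replicate 3. These barcodes had medians of 1943, 2109 and 3215 UMIs. In barcodes with over 20% MT share the sums were 1773, 871 and 1621 CPM. Kept cells had 2079, 1023 and 2299 CPM, so on this scale both sets of left-out barcodes lay below the kept cells in all 3 libraries. Mitochondrial UMIs are part of these totals. With them left out, all barcodes over 30% MT share stood at 3730, 1791 and 3172 CPM. Those at 20 to 30% stood at 2344, 1106 and 2118 CPM, and those at 10 to 15% at 2618, 1310 and 2866 CPM. The order therefore depends on the scale.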

How the results depend on the processing

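Of the results on single genes, 713 kept their direction and their side of the threshold, 39 passed that had not, 48 no longer passed and 29 turned sign; of the counts and summary values, 208 stayed close and 53 moved. The cause of the moves was not tested, except where fewer cells or libraries entered.

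Library block: without the replicate block, 2 of the 8 genes were lower in collagen cells (5 with it), and the MT comparison gave 7 genes higher, 0 lower and 0 of the 8 (121, 53 and 1 with it). Taking the block out moved no count of the TPH1 comparison by over 1.5 times.

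TPH1 over GCG cells: genes higher numbered 836, against 1278 with MT share up to 30%, 3788 with plain library totals and 540 to 1027 leaving out 1 library. Genes lower numbered 990, against 530 with DESeq2 and 413 with plain totals. Of the 8, 3 were higher with plain totals and 0 to 1 leaving out 1 library; 1 was lower with MT share up to 30%, 2 with no filter on low counts and 0 to 2 leaving out 1 library. Signs turned with plain totals for DUSP1 (0.17), EGR1 (0.38), FOS (0.20), FOSB (0.28) and JUNB (0.48), with GCG at 10% for EGR1 (0.037) and JUNB (0.11), and for JUNB with at least 5 TPH1 UMIs (0.025) and MT share up to 30% (0.0091). Leaving out 1 library gave -0.11 to 0.024 for JUNB and -0.21 to 0.51 for IER2.

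Collagen over GCG cells: genes higher numbered 2661, against 1429 with DESeq2 and 1464 with cells drawn to 5000 UMIs, and genes lower 2781, against 1063 and 1436. Of the 8, 3 were lower with either. FOS turned with GCG at 10% (-0.0064), MT share up to 30% (-0.073), at least 20 (-0.021) or 5 (-0.24) collagen UMIs, a minimum of 5 cells (-0.29, an alternative added after seeing the data) and no filter on low counts (-0.045). IER2 turned with RLE factors (-0.014), 20 collagen UMIs (-0.0063) and no filter (-0.081), and ATF3 with 20 collagen UMIs (-0.39).

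High-MT over low-MT GCG cells: genes higher (121) numbered 39 with DESeq2, 34 with at least 500 genes, 0 with MT share up to 10%, 288 with up to 30%, 58 drawn to 5000 UMIs and 76 to 136 leaving out 1 library. Genes lower (53) numbered 5 with at least 500 genes, 0 up to 10%, 260 up to 30%, 86 with no filter, 381 with plain totals, 23 with narrower high and low sets, 111 ranked within UMI bins, 11 drawn to 5000 UMIs and 11 to 165 leaving out 1 library. Genes lower numbered 49 with GCG at 10% and 78 with at least 2000 genes. Of the 8, 6 were lower with GCG at 10%, with at least 2000 genes, with plain totals and ranked within UMI bins. With MT share up to 30%, 7 were lower, and with no filter 2. With at least 500 genes, up to 10% or drawn to 5000 UMIs, 0 were lower, and leaving out 1 library 0 to 5. Up to 10% MT share, where the low side holds the shallow barcodes below 5%, signs turned for DUSP1 (1.63), EGR1 (1.72), FOS (1.56), FOSB (1.49), IER2 (1.27), JUN (1.39) and JUNB (1.27), and none passed; IER2 also turned with at least 500 genes (0.063).

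The mean over libraries of the median correlation of all 28 pairs was 0.361, and 0.213 drawn to 5000 UMIs. The mean rho of the summed level with MT share was -0.009, against -0.122 with at least 2000 genes, 0.174 with at least 500 and 0.456 up to 10% MT share. The 5% of cells with most UMIs of the 8 genes held 15.9% of them, and 22.8% up to 10% MT share. No fit was possible up to 10% MT share for TPH1 and collagen cells, which were too few, nor leaving out a library of the collagen fit, where 1 pair leaves no residual degrees of freedom. Depth limits ATF3 throughout, and collagen cells of replicates 1 and 2.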
